A study of Homo sapiens with 14 samples.

Results

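The cytoplasmic ribosomal proteins are the protein part of the 2 subunits of the ribosome outside mitochondria. Members were chosen by gene symbol alone: RPL or RPS followed by a number, with older symbols updated, plus RPLP0, RPLP1, RPLP2 and RPSA. Kinases of the RPS6K family, pseudogenes and paralogs with an L after the number (such as RPL26L1) were left out. The rule took 70 of the 14533 genes named on the arrays. They were 41 proteins of the large subunit, 26 of the small subunit and the 3 proteins of the stalk, read by 89 probes. A further 9 genes that fit the rule in the RefSeq gene table, among them RPS6 and RPS27A, were not analysed here. RPS4Y1 and RPS4Y2 count among the members, and their values are not given.

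All RNA came from LNCaP, an established androgen-responsive line from a human prostate cancer metastasis, so every group is 1 cell line. Every culture, controls included, was first kept without steroids for 48 h. Cells then received 1 nM R1881, a synthetic androgen, 25 µg/ml cycloheximide (CHX, which blocks the ribosome during elongation), or both agents added together, each for 24 h, and control cells were depleted of steroids only. Each treatment was hybridised against control in 2 independent culture experiments and in both dye orientations, which gives 4 arrays per comparison and n = 2. A last pair of arrays set CHX plus R1881 directly against CHX, as a dye swap of 1 experiment whose number the sample titles do not give. Below, an orientation is named by the dye of the treated RNA, Cy3 or Cy5, and all values are log2 ratios of treated over control RNA. The files hold ratios only, so prostate markers could not be checked as levels, nor could amounts of RNA per gene.

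Ribosomal proteins are needed in near-equal numbers and come from mRNAs that are among the most abundant in growing cells. Nearly all of these mRNAs begin with a C followed by an unbroken stretch of pyrimidines, the 5′ terminal oligopyrimidine (5′TOP) motif, through which the mTOR kinase and the RNA-binding protein LARP1 set their translation and stability together. Ribosomal proteins made in excess of rRNA are degraded, and RPL5 and RPL11, bound to the 5S rRNA, can instead inhibit MDM2, the ubiquitin ligase of p53. In prostate cancer cells, androgen receptor signalling and growth signalling through mTOR are both known to feed into ribosome production.

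The start regions of 6 members are shown because most of them hold the pyrimidine run typical of this family while their transcripts moved in opposite directions with CHX. They are the 3 with the largest fall and the 3 with the largest rise among members that have a promoter entry and only probes numbered above 4608 (a limit explained with the arrays). Each line runs from 40 bases before to 20 bases from the annotated start, 5′ to 3′ on the gene's strand, from RefSeq on GRCh38.p14. Capitals mark the longest unbroken run of C and T that reaches within 10 bases of the start.
RPL13A (chr19:49487568-49487627, + strand): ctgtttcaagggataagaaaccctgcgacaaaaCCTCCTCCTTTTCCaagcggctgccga
RPL13 (chr16:89560617-89560676, + strand): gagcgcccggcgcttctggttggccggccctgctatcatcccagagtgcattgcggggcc
RPL17 (chr18:49492446-49492505, - strand): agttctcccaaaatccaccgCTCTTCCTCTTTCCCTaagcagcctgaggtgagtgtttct
RPL9 (chr4:39458903-39458962, - strand): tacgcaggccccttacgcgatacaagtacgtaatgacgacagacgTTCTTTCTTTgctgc
RPS26 (chr12:56041878-56041937, + strand): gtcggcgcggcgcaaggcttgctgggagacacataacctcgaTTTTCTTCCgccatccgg
RPL37A (chr2:216498804-216498863, + strand): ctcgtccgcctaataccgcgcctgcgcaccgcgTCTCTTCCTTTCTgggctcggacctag
The run is 14 bases long at RPL13A, which fell, and 13 bases at RPL37A, which rose. No run of 5 or more is marked at the annotated start of RPL13. Of the 70 members, 60 had an entry in the RefSeq promoter table. A run of at least 8 pyrimidines on the gene's strand within 10 bases of the start was present in 47 of the 60 (78.3%), against 15.0% of 27305 promoters of all genes. It was present in 19 of 23 members that fell with CHX and 9 of 12 that rose, so members of either direction carried it.

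Other motifs were searched on both strands over the window from 250 bases before to 50 after the start. CCGGAAG, a core bound by ETS factors, was present in 31.7% of member promoters and 10.7% of all promoters. AAGATGGCG, which holds the core bound by YY1, was present in 8.33% and 1.85%. CTTTCC was found in 45.0% and 26.3%, CTTTTC in 31.7% and 21.2%, and TATAAA in 8.33% and 12%. These matches describe letters in a window and are not binding sites.

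Several features of the arrays touch the results. The SD over all probes was 0.182 to 0.254 on the R1881 arrays and 0.571 to 0.617 on the arrays of CHX against control. In R1881 experiment 1, the 2 orientations of the same RNA correlated at r = 0.134 over all probes but at r = −0.772 over the 70 members. In R1881 experiment 2 these values were 0.216 and 0.533, so the members' opposition was not repeated there. For CHX the orientations correlated at r = 0.882 and 0.788 over all probes and at 0.86 and 0.897 over the members. On the direct arrays the values were −0.0427 and −0.588. Genes are not independent replicates and the arrays of a pair share their RNA, so these are descriptions. The direction of every ratio is likely, not certain. It was set from genes known to respond to androgen, of which 28 of 31 lay above 0 with R1881 once all values were turned, and from immediate-early genes, of which 29 of 35 lay above 0 with CHX.

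The 27648 probe numbers divide into 48 runs of 576, and the first 8 runs, numbers 1 to 4608, stood apart. GAPDH was spotted many times. Its 44 spots in the first 8 runs had a median CHX ratio of −2.95 (−3.45 to −1.60), and its 228 later spots a median of −0.58 (−1.27 to −0.13). The ACTB spots were offset in the same direction, with a median of 0.20 over 279 spots in the first runs and 2.08 over 42 later spots. For the same 2 genes on the same arrays, the ratios therefore differed with the probe number. Of all probes, 1.69% lay below −2 with CHX in the first runs and 0.226% later. Of the members, 8 were read only by probes in the first runs (RPL4, RPL10, RPL12, RPL29, RPS2, RPS3, RPS13 and RPS15A), 6 by probes in both parts and 56 only by later probes. The layout of the slide and the sequences of the probes are not given in the sources used here. For the members and their subunits, counts of calls in the fit as reported and medians over both orientations are given with and without these probes. This split was made after seeing the data. Counts of calls under alternative settings include these probes. The part that this offset plays in any single member was not tested.

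**Figure D1:**
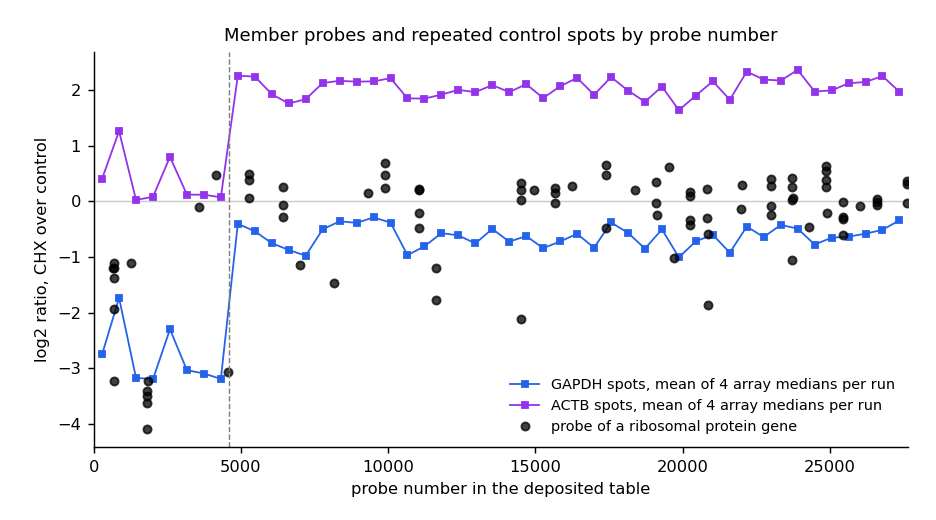
CHX over control by probe number: each black point is the log2 ratio of 1 probe of a ribosomal protein gene (mean over 2 experiments and both orientations, RPS4Y1 and RPS4Y2 left out), and squares are the GAPDH and ACTB spots of each run of 576 numbers. Left of the dashed line at 4608 the GAPDH squares lie between about −1.7 and −3.2 and most member probes lie below −1, while right of it GAPDH lies near −0.6 and most member probes lie within 1 unit of 0.

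With CHX, ribosomal protein transcripts were called in both directions, and the balance depended on the dye orientation and on the size of change required. Of the 70 members, 26 fell and 13 rose at an adjusted p under 0.05 in limma, and 31 passed in neither direction. The median member lay at −0.12 against 0.002 for all genes, with a range from −4.09 to 0.65. Over all 14533 genes, 17.5% fell and 20.5% rose, 38.0% in all. Falls were therefore more frequent among members (37.1%) than in the background, and rises were about as frequent (18.6%). If the true direction were the opposite, the same counts would read as an excess of rises. Of the 26 that fell, 20 were below 0 on all 4 arrays, and of the 13 that rose, 11 were above 0 on all 4. From the Cy3 arrays alone, 28 members fell and 4 rose, with 35.5% of all genes called. From the Cy5 arrays alone, 18 fell and 16 rose, with 34.9% of all genes called.

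The excess of falls rested in part on the first probe numbers. With those probes left out, 62 members remained, of which 15 fell and 13 rose, and the median moved to 0.02. Over the 12526 genes with later probes, 16.9% fell and 20.9% rose. Of these 15 falls, 12 were below 0 on all 4 arrays, and the exceptions were RPL26, RPL38 and RPS12. The 13 rises all came from later probes.

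The 5 largest falls with CHX belonged to RPS2, RPS3, RPL12, RPL29 and RPL4, each read by 1 probe between numbers 1826 and 1831. RPS2 and RPS3 sit at the mRNA entry of the small subunit. The ratios of RPS2 were −3.23 (experiment 1, Cy3), −3.60 (experiment 1, Cy5), −4.43 (experiment 2, Cy3) and −5.11 (experiment 2, Cy5), a mean of −4.09 ± 0.96 (SD, n = 2). Those of RPS3, in the same order, were −2.86, −3.22, −3.71 and −4.68, a mean of −3.62 ± 0.82. All arrays were far below 0 for both genes, and experiment 2 was lower than experiment 1 in either orientation. RPL12, at the base of the stalk, had −3.50 ± 0.91, RPL29 had −3.40 ± 0.89 and RPL4, which lines the exit tunnel of the nascent chain, had −3.22 ± 0.17. The adjusted p in limma ran from 0.000256 for RPL4 to 0.00199 for RPL12. The GAPDH spots of the same run of numbers (1729 to 2304) read −2.71, −2.82, −3.41 and −3.84 on these 4 arrays, and no later probe reads any of the 5 genes.

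RPL5 shows the split within a gene. Its probe numbered 4562 read −2.52, −2.73, −3.37 and −3.66 with CHX, in the order used for RPS2. Its probe numbered 25451 read 0.03, 0.17, −0.15 and −0.08. The first probe was far below 0 on every array and the second near 0 on every array, so the gene's averaged fall of −1.54 ± 0.39 stood for neither. Over later probes alone RPL5 was −0.005 ± 0.15 (limma adjusted p = 0.972). RPS15, a small-subunit protein of the decoding region, split the other way. Its probe in the first runs rose (0.48, limma adjusted p = 0.0388) and its later probe fell (−1.15, adjusted p = 0.000608).

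A second cluster of member probes, numbered 674 to 680, reads RPL11, RPS13, RPLP0, RPL39, RPL10 and RPL27, and there the orientations disagreed. RPS13, a small-subunit protein read only here, had −2.23 and −2.66 with CHX RNA in Cy3 and 0.01 and 0.11 with CHX RNA in Cy5. Its value counted as a fall (−1.20 ± 0.12, limma adjusted p = 0.00326), although both Cy5 arrays were near 0. The probe of RPL11 in this cluster read −2.21 and −2.74 in Cy3 and 0.10 and 0.06 in Cy5. The GAPDH spots of the same run (577 to 1152) also read −2.68 and −2.77 in Cy3 but −0.79 and −0.70 in Cy5. The arrays of CHX plus R1881 repeated the match. RPS13 there had −1.80 and −3.28 in Cy3, −2.62 on the Cy5 array of experiment 1 and 0.14 on that of experiment 2, and the GAPDH spots of the run had −2.14, −2.78, −2.53 and −0.63. RPL11, which binds MDM2 together with RPL5, had a later probe at 0.21 ± 0.35 (adjusted p = 0.23). The later probes of RPL39, a small protein of the exit tunnel, and of RPL27 gave −0.02 ± 0.15 and 0.17 ± 0.23, and neither passed the limma test (adjusted p = 0.926 and 0.445).

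**Figure D2:**
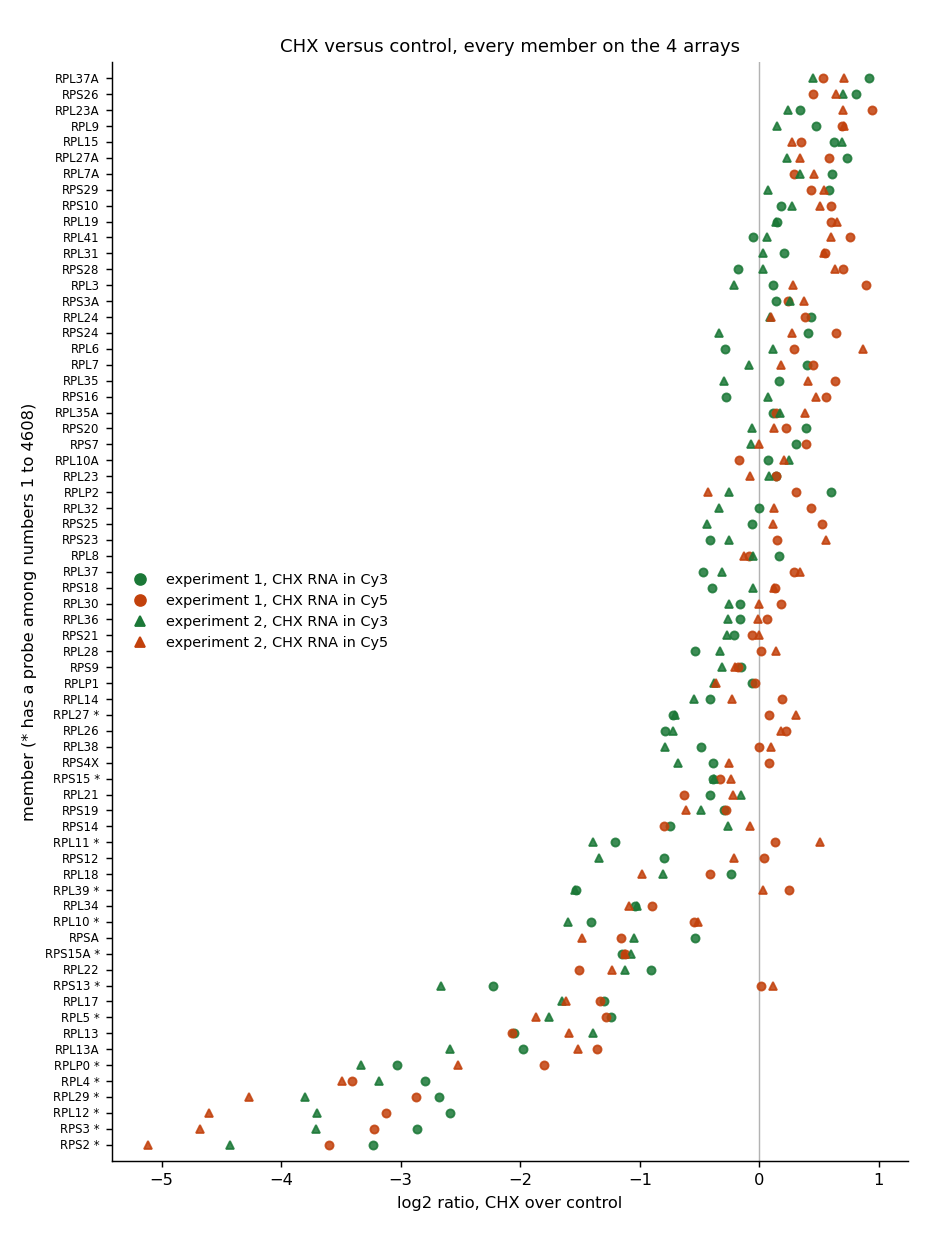
CHX over control for each member (rows, ordered by mean; RPS4Y1 and RPS4Y2 left out): circles are experiment 1 and triangles experiment 2, green with CHX RNA in Cy3 and orange in Cy5, on a log2 axis. The 5 members at the bottom, all starred for a probe among numbers 1 to 4608, lie below −2.5 on all 4 arrays, and RPS13, RPL39 and RPL11 have both green symbols below −1.2 and both orange symbols above 0.

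Among members read by later probes, the stalk protein RPLP0, the acidic protein that anchors the stalk to the large subunit, fell most with CHX. Its later probe read −2.15, −1.62, −2.39 and −2.32, a mean of −2.12 ± 0.33 (limma adjusted p = 0.000651), below 0 on every array. Its partners on the stalk, which recruit elongation factors, did not pass. RPLP1 was −0.21 ± 0.22 (adjusted p = 0.224) and RPLP2 was 0.06 ± 0.56 (adjusted p = 0.87), with experiment 1 above 0 and experiment 2 below 0 for RPLP2. The difference between the stalk genes was not tested.

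RPL13A, a large-subunit protein that also takes part in the translational silencing of inflammatory mRNAs, had −1.98, −1.36, −2.59 and −1.52, a mean of −1.86 ± 0.27 (limma adjusted p = 0.000488). RPL13 had −2.05, −2.07, −1.39 and −1.59, a mean of −1.77 ± 0.40 (adjusted p = 0.000455). Both were well below 0 on all arrays, and the Cy3 arrays were the lower ones for RPL13A only. RPL17, next to the exit tunnel, gave nearly the same ratio in both orientations, −1.30 and −1.33 in experiment 1 and −1.65 and −1.62 in experiment 2 (adjusted p = 0.000788). RPL22, an RNA-binding protein that ribosomes can do without, fell by 1.19 (SD 0.02, adjusted p = 0.000172), and RPL34 fell by 1.01 (SD 0.06, adjusted p = 0.000271). RPSA, the laminin receptor precursor of the small subunit, was −1.06 ± 0.30 (adjusted p = 0.00496), with all 4 arrays between −0.54 and −1.48. Under quantile normalization RPSA was −0.735 and did not pass (limma adjusted p = 0.135).

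RPS15A, a small-subunit protein read only among the first numbers, lay between −1.07 and −1.15 on all 4 arrays. Smaller falls followed. RPS19, the gene most often mutated in Diamond-Blackfan anaemia, was −0.42 ± 0.18 (limma adjusted p = 0.0258), and without experiment 2 it was −0.29 and did not pass (adjusted p = 0.187). RPS14, whose loss underlies the anaemia of the 5q- syndrome, was −0.47 ± 0.42 and did not pass (adjusted p = 0.0914), with experiment 1 at −0.77 and experiment 2 at −0.17. RPL26, which binds the p53 mRNA, was called as fallen (−0.28 ± 0.01, adjusted p = 0.0178) on the strength of Cy3 arrays at −0.79 and −0.72, while its Cy5 arrays read 0.22 and 0.18. This call was lost with either CHX experiment left out (limma adjusted p = 0.108 and 0.0844). The same split was seen for RPL38, a large-subunit protein known for its part in translating Hox mRNAs, at −0.49 and −0.79 in Cy3 and 0.00 and 0.10 in Cy5.

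The rises with CHX were small beside the falls. RPL37A, a zinc-finger protein of the large subunit, had 0.92, 0.53, 0.45 and 0.71, a mean of 0.65 ± 0.10 (limma adjusted p = 0.000803). RPS26, which lies at the mRNA exit of the small subunit and is mutated in Diamond-Blackfan anaemia, had 0.81, 0.45, 0.70 and 0.64, a mean of 0.65 ± 0.03 (adjusted p = 0.00146). Both genes were above 0 on all arrays in both orientations, at 1.57-fold on average. RPL23A, near the exit of the tunnel where the signal recognition particle docks, rose to 0.55 ± 0.12. RPL9 rose to 0.50 ± 0.10 and RPL15 to 0.48 ± 0.01. RPL27A had 0.73, 0.58, 0.23 and 0.34, a mean of 0.47 ± 0.26 (limma adjusted p = 0.0163). RPS29 had 0.58, 0.43, 0.07 and 0.54, a mean of 0.40 ± 0.14 (adjusted p = 0.00645). Without experiment 1 neither passed in limma, RPL27A at 0.29 (adjusted p = 0.111) and RPS29 at 0.30 (adjusted p = 0.0553), and RPL23A at 0.47 did not either (adjusted p = 0.0659). On the Cy3 arrays alone, RPL23A (0.29), RPL9 (0.31) and RPS29 (0.32) did not pass (limma adjusted p = 0.104, 0.0671 and 0.12). RPL7A, beside them in size at 0.43 ± 0.03, did not pass (adjusted p = 0.0617).

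Neither subunit moved as a unit with CHX. Of the 41 large-subunit genes, 15 fell and 8 rose (median −0.06), and of the 26 small-subunit genes, 10 fell and 5 rose (median −0.17), beside 17.5% and 20.5% of all genes. With later probes alone, 8 of 37 large-subunit genes fell and 8 rose (median 0.07). Of 22 small-subunit genes, 6 fell and 5 rose (median −0.02). In bulk RNA fewer cells and less RNA per cell cannot be told apart, and ratios centred within each array do not show a change common to all mRNA.

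CHX plus R1881 against control gave counts close to those of CHX alone. In limma, 28 members fell and 9 rose, against 16.6% and 20.8% of all genes (37.5% in all), with a median of −0.16 against 0.008. Of these, 22 of the 28 and 7 of the 9 had the same sign on all 4 arrays. From the Cy3 arrays alone, 30 members fell and 3 rose (35.7% of genes called), and from the Cy5 arrays 19 fell and 16 rose (32.7%). Without the first probe numbers, 16 of 62 members fell and 9 rose, against 15.9% and 20.9% of genes, with a median of −0.04. Of the members called with CHX alone, 23 fell and 8 rose in this comparison too, and 0 changed direction. The overlap over all genes is not given here, so this count does not set the members apart from other genes. Both comparisons also have control RNA as their reference. Whether it came from the same cultures is not given in the sources used here.

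The members at the ends of the range were mostly those of CHX alone. RPS2 was −3.90 ± 0.85, RPL12 −3.62 ± 1.06, RPS3 −3.60 ± 0.87, RPL29 −3.21 ± 0.91 and RPL4 −3.17 ± 0.26, again all in the first probe numbers. Of the later probes, that of RPLP0 gave −1.85 ± 0.39 (limma adjusted p = 0.001). RPL13 had −1.90, −1.89, −1.84 and −1.72, a mean of −1.84 ± 0.08, the values of all arrays close together. RPL13A was −1.66 ± 0.37 and RPL17 −1.59 ± 0.22. RPS14 and RPL21 passed here (−0.71 ± 0.35 and −0.41 ± 0.22, adjusted p = 0.027 and 0.0395), and RPS19 did not (−0.26 ± 0.12, adjusted p = 0.109). Whether these members differ between the comparisons was not tested.

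On the side of the rises, RPS26 was 0.57 ± 0.15, RPL15 0.57 ± 0.15, RPL23A 0.52 ± 0.24 and RPL37A 0.48 ± 0.01, each with adjusted p of 0.00898 or less in limma. RPL7A passed at 0.51 ± 0.41 (adjusted p = 0.0357), with 0.90 and 0.70 in experiment 1 and 0.15 and 0.28 in experiment 2. The effect of RPL7A was therefore carried mainly by experiment 1. RPL9 had 0.25, 0.26, 0.03 and 0.49, a mean of 0.26 ± 0.003 (adjusted p = 0.0209). Its call was lost with either experiment of this comparison left out (limma adjusted p = 0.123 and 0.109) and on the Cy3 arrays alone (0.14, adjusted p = 0.34). Without experiment 1, RPL7A was 0.22 (adjusted p = 0.21) and RPL23A 0.35 (adjusted p = 0.0685). RPL27A and RPL24, a large-subunit protein of the intersubunit bridge, were above 0 on all 4 arrays at 0.29 ± 0.12 and 0.27 ± 0.28 and did not pass (adjusted p = 0.0798 and 0.147).

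R1881 alone changed no member past the test. With limma, 0 of 70 members were called, and 1 gene of all was (0.00688%). At an unadjusted p under 0.05 there were 7 members (10%) and 6.34% of genes. The members nevertheless leaned one way. The value was below 0 for 67 of 70 members against 50.1% of genes, with a median of −0.14 against 0 and a range from −0.49 to 0.01. Below 0 on all 4 arrays were 21 members (30%) against 13.0% of genes, and 0 members were above 0 on all 4. With later probes alone the median was −0.12, 0 of 62 members rose or fell, and the share of all 12526 genes called was 0 in either direction.

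The lean differed by array. The member medians were −0.17 (experiment 1, Cy3), −0.03 (experiment 1, Cy5), −0.20 (experiment 2, Cy3) and −0.17 (experiment 2, Cy5). In experiment 1, 59 of 70 members were below 0 with R1881 RNA in Cy3 and 40 of 70 with it in Cy5. The shares of all genes below 0 on these arrays were 47.7% and 52.2%. In experiment 2 the counts were 58 and 60, against 51.9% and 51.7% of genes. Only the Cy5 array of experiment 1 stood near 0. The median of the members was −0.09 in experiment 1 alone and −0.17 in experiment 2 alone.

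**Figure D3:**
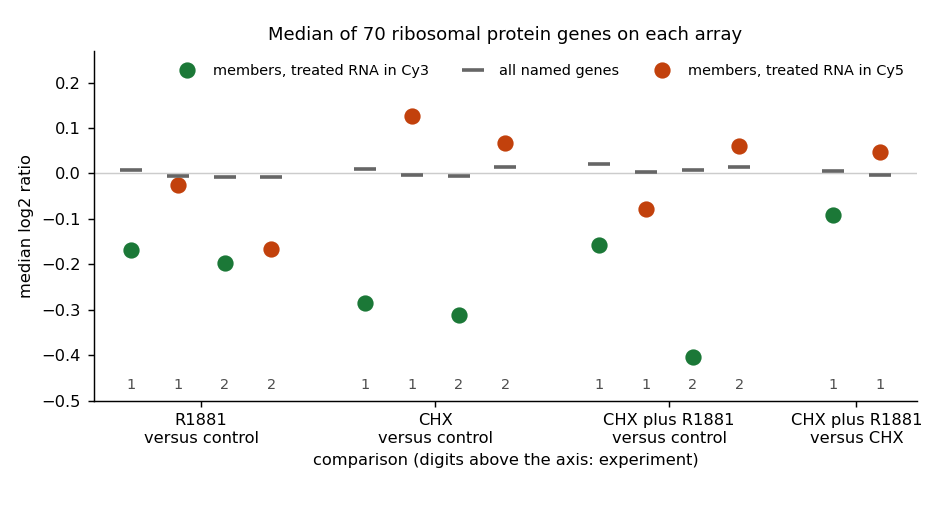
Median log2 ratio of the 70 members on each of the 14 arrays, green where the treated RNA (CHX plus R1881 on the direct arrays) was in Cy3 and orange in Cy5; grey bars are the medians of all named genes, and digits give the experiment. Every Cy3 median lies below 0, the Cy5 medians lie between −0.17 and 0.13, and within each experiment the Cy3 point is below the Cy5 point.

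Among members below 0 on all 4 arrays with R1881, RPS3 had the lowest mean. Its ratios were −0.16 and −0.21 in experiment 1 (Cy3, Cy5) and −0.74 and −0.83 in experiment 2, a mean of −0.49 ± 0.42 (limma adjusted p = 0.963). RPS2 had −0.07, −0.08, −0.87 and −0.53, a mean of −0.39 ± 0.44 (adjusted p = 0.999). For both genes experiment 2 was the lower in either orientation, and the GAPDH spots of the first runs were at −0.56 and −0.10 in experiment 2 and −0.18 and 0.02 in experiment 1, in the order Cy3 and Cy5. RPS15A had −0.31 ± 0.24, RPL5 −0.29 ± 0.19 and RPL29 −0.23 ± 0.01, also with probes among the first numbers.

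Of members with later probes only, RPL17 was the lowest. Its ratios were −0.02 and −0.23 in experiment 1 and −0.45 and −0.58 in experiment 2, a mean of −0.32 ± 0.27 (limma adjusted p = 0.796). RPL34 had −0.14, −0.20, −0.32 and −0.32, a mean of −0.25 ± 0.11 with adjusted p = 0.559, the lowest among the members named for R1881. Experiment 2 was again the lower. RPLP2 had −0.19 ± 0.11. RPL13A (−0.10 ± 0.06) and RPS14 (−0.16 ± 0.13) were below 0 on every array too, and RPSA (−0.24 ± 0.37), RPS19 (−0.18 ± 0.22), RPL22 (−0.08 ± 0.09) and RPLP1 (−0.10 ± 0.07) on 3 of 4. RPL11 and RPLP0 have probes in both parts. RPL11 (−0.15 ± 0.09) was below 0 on 3 of 4 arrays, and RPLP0 (−0.27 ± 0.39) was near 0 in experiment 1 and at −0.59 and −0.49 in experiment 2. RPL26 read −0.78 and −0.28 in Cy3 and 0.42 and 0.04 in Cy5, so its mean of −0.15 joined opposite signs.

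R1881 in the presence of CHX was read as the contrast of the treatments with and without R1881. In limma 0 members and 0 of 14533 genes passed, and 6 members (8.57%) and 1.27% of genes had an unadjusted p under 0.05. Those 6, named after their values were seen, were RPS13, RPL11, RPL39, RPL41, RPL9 and RPL26, all below 0. With later probes alone there were 3 of 62 members (4.84%) and 1.25% of genes. The first 3 have probes in the cluster of numbers 674 to 680, where the Cy5 arrays of experiment 1 differed between the treatments. Subtracting this contrast from R1881 versus control, a test of whether CHX altered the response, passed for 0 members and 0 genes, with 3 members (4.29%) and 2.45% of genes at an unadjusted p under 0.05 (with later probes 2 of 62 and 2.48%). The direct arrays had member medians of −0.09 in Cy3 and 0.05 in Cy5.

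The dye orientations were then compared member by member. In limma, the difference between orientations passed for 0 members and 0% of genes in each of the 3 comparisons with control. At an unadjusted p under 0.05 it did so for 13 members with R1881 (18.6%, against 8.09% of genes), 33 with CHX (47.1%, against 13.2%) and 26 with CHX plus R1881 (37.1%, against 11.2%). With later probes alone it did so for 14, 24 and 23 of 62 members, in the same order, against 8.49%, 13.3% and 11.2% of genes, and again 0 passed the adjusted test. The Cy3 mean lay below the Cy5 mean in 46, 46 and 48 of the 70 members, in the same order, against 47.7%, 47.2% and 46.5% of genes. The orientation medians were −0.21 and −0.09 for R1881, −0.24 and 0.07 for CHX, and −0.29 and −0.04 for CHX plus R1881, Cy3 first.

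The largest orientation differences with CHX, Cy3 minus Cy5, were −2.50 for RPS13, −1.68 for RPL39, −1.62 for RPL11 and −1.02 for RPLP0 (limma adjusted p of 0.289 to 0.356), all in the cluster of numbers 674 to 680. The smallest were 0.00 for RPL17, −0.01 for RPS20, a small-subunit protein, 0.01 for RPS15A and 0.02 for RPL24. The orientations had opposite signs in both experiments for 10 members with R1881 (14.3%, against 14.8% of genes), 11 with CHX (15.7%, against 8.33%) and 9 with CHX plus R1881 (12.9%, against 6.94%).

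In experiment 1 of R1881, 29 members (41.4%) were below 0 in Cy3 and above 0 in Cy5, against 20.2% of genes. On the direct arrays 38 members (54.3%) had that pattern, against 22.0% of genes. RPL37, a large-subunit protein chosen after its values were seen, read −0.70 and 0.66 in R1881 experiment 1 and −0.55 and 0.50 on the direct arrays. Sizes in the orientations were close to equal and of opposite sign. RPL14, RPL26 and RPL19, chosen in the same way, read −0.62 and 0.44, −0.78 and 0.42, and −0.48 and 0.27 in R1881 experiment 1. In R1881 experiment 2, RPL37 read −0.22 and 0.10 and RPL26 −0.28 and 0.04. There RPL14 (−0.56 and −0.09) and RPL19 (−0.14 and −0.01) were below 0 in both orientations. A dye swap averages values of like size and opposite sign to near 0, and the cause was not tested.

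**Figure D4:**
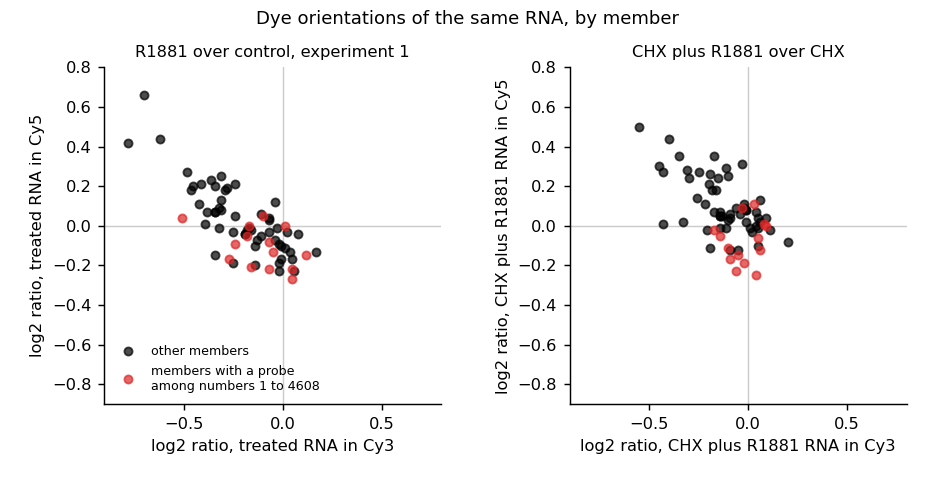
Each point is 1 member (RPS4Y1 and RPS4Y2 left out), with the log2 ratio in the Cy3 orientation on the x axis and in the Cy5 orientation on the y axis, for R1881 over control in experiment 1 and for CHX plus R1881 over CHX; red points have a probe among numbers 1 to 4608. Both clouds slope downward (r = −0.772 and −0.588 over 70 members) and reach furthest into the upper left corner, where the orientations have opposite signs. Experiment 2 of R1881 is not drawn, and its orientations correlated at r = 0.533 over the 70 members.

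Genes that work with the ribosomal proteins were read from lists drawn up with earlier results of these data known. Their counts stand beside the 17.5% of all genes that fell with CHX and the 20.5% that rose. Of 23 other measured 5′TOP transcripts, 12 fell and 1 rose with CHX (median −0.32), and without the first probe numbers 11 of 21 fell and 1 rose, at the same median. EIF4B, an initiation factor that assists unwinding of the mRNA leader, read −1.36, −1.51, −1.02 and −1.09, and limma gave an adjusted p of 0.000756. HNRNPA1, an RNA-binding protein, was −0.77 ± 0.003 and TPT1, the translationally controlled tumour protein, was −0.60 ± 0.05. EIF3L, a subunit of initiation factor eIF3, was −1.64 with both probes and −0.51 with its later probe.

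Of the L-suffixed paralogs, which can stand in for their relatives, 5 were measured. RPL26L1 rose with CHX, with 1.20, 1.18, 0.96 and 0.99 on the 4 arrays (limma adjusted p = 0.000291), while RPL26 itself had opposite signs in the orientations. RPS27L, a p53 target, rose to 0.56 ± 0.20, and RPL3L, a muscle form, fell by 0.21 (SD 0.04). The mitochondrial ribosomal proteins had 20 falls and 18 rises among 76 with CHX (median −0.06), and 16 of each among the 63 with later probes.

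Of 30 ribosome biogenesis genes, 11 rose and 8 fell with CHX (median 0.03). Without the first probe numbers, 9 of 28 rose and 8 fell (median −0.02). NOP14 and LTV1, which act in maturation of the small subunit, rose to 1.34 ± 0.002 and 1.28 ± 0.14, and RRP12, an export factor, and NHP2, of the H/ACA particles, fell by 1.13 and 1.15. With R1881, 26 of the 30 were above 0 and 0 passed the test (median 0.09), whereas 67 of the 70 ribosomal protein genes were below 0. Of 12 measured regulators of 5′TOP mRNAs, 5 rose and 3 fell with CHX, as did 5 and 3 of the 10 with later probes. EIF4EBP1, a repressor of cap-dependent initiation, was −1.95 ± 0.07 and DDIT4, an inhibitor of mTOR, −3.69 ± 1.5, while MTOR and its activator RHEB rose to 1.09 ± 0.20 and 1.03 ± 0.15. CDKN1A, the p53 target that arrests the cell cycle, rose to 0.85 ± 0.16 among 6 genes of ribosome stress, of which 1 other, SESN1, fell (−0.50 ± 0.20). All calls in these lists are limma calls over all 14533 genes, or over the 12526 genes with later probes where the first probe numbers were left out.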

How the data were processed

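The authors deposited 1 table of log ratios per probe for 14 two-colour arrays, taken here as log2 ratios, with 27648 probes and 0 missing values. The log base, the numerator, the background correction and the normalization are not given in the sources used here. The deposited log2 values were multiplied by −1 on every array, by the sign check the report describes. Probes were named by accession through a RefSeq gene table (14721), by current symbol (1814), by older symbol (1085) or kept as they stood (91), and 9937 had no name. Probes of a gene were averaged. Many ribosomal protein genes have near-identical pseudogenes, and cross-hybridisation was not tested.

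The arrays of a dye swap were averaged, which left 6 values, fitted in limma 3.58.1 (R 4.3.3) with 1 term per treatment, 3 residual degrees of freedom and 2.57 prior degrees of freedom. The spread of each gene was pooled over the 3 treatments. Calls needed an adjusted p under 0.05, by the method of Benjamini and Hochberg across the 14533 named genes. Single probes were adjusted across the 17711 named probes. Values from later probes alone were adjusted across the 12526 genes that have them. Orientations were compared by the same fit to the differences Cy3 minus Cy5. The method was tested on simulated data. The number of arrays limits the precision, and the signal over background is unknown.

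The members and lists were chosen with earlier results of these data known. The genes named were, per comparison with control, the 8 largest rises and 8 largest falls among members of 1 sign on all 4 arrays, the 4 largest and 4 smallest orientation differences with CHX, members whose called probes disagree, a fixed set (RPLP0, RPLP1, RPLP2, RPSA, RPL5, RPL11, RPL13A, RPS19, RPL26, RPL22, RPS14) and up to 4 genes of each other list. No member had 1 sign above 0 on all 4 arrays with R1881. The alternatives were random and replicate blocks, single orientations, other normalizations, other probe summaries and names, a 1.5-fold limit and each experiment left out. Leaving out probes 1 to 4608 was added after seeing the data.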

Additional observations from a re-analysis of the deposited data

Results flagged for a closer look

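With R1881, RPL22 read −0.28 on the Cy5 array of experiment 2 and between −0.03 and 0.01 on the other 3 arrays, so 1 array stood far from the rest. With CHX plus R1881, RPL27A read 0.01 on the Cy3 array of experiment 2 and between 0.36 and 0.39 on the others. Such gaps were looked for in 102 sets of 4 arrays, and chance alone flags about 1 set in 20.

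RPS2 and RPL27A were below 0 on all 4 arrays of R1881 versus control, with means of −0.39 and −0.14, and above 0 on both direct arrays of CHX plus R1881 against CHX, at 0.01 to 0.08 and 0.04 to 0.05. The difference between the R1881 arrays and the direct arrays was not tested.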

How the results depend on the processing

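For 49 values of named members, 819 alternative values were computed: 766 kept their direction and side of the threshold, 34 fell short of it, 14 passed it and 5 reversed. Many of the 819 could hardly change. For the 53 members with 1 probe, other probe summaries repeat the same ratio. Adding a block, or leaving out an experiment of another treatment, also keeps the ratio and moves only its p-value. The count of 766 is therefore not a measure of robustness. The reversals were RPLP2 with CHX (−0.062 from Cy5 arrays alone, −0.34 to 0.452 with an experiment left out), RPL11 (0.32 from Cy5 arrays alone, 0.21 without probes 1 to 4608) and RPL26 (0.20 from Cy5 arrays alone).

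With quantile normalization 4 members were called with R1881 (5.71%, against 5.07% of genes) and the orientations differed for 6 (8.57%, against 3.94%), where the fit as reported gave 0 and 0. At 1.5-fold or more, 21 members were called with CHX and 22 with CHX plus R1881, against 39 and 37, with 20.5% of genes called in each. Of the 21, 19 fell and 2 rose, and of the 22, 22 fell and 0 rose. These counts include probes 1 to 4608, and the falls among them include RPS2, RPS3, RPL12, RPL29 and RPL4, read only there. Counts at this limit without those probes, and the shares of all genes by direction, are not given here. The R1881 median moved to −0.21 (Cy3 only), −0.28 (quantile) and −0.19 (scaled arrays). The CHX median was −0.244 from Cy3 arrays and 0.065 from Cy5 arrays, −0.083 under quantile normalization, −0.075 on scaled arrays, −0.076 as the median over probes, −0.037 with every probe alone and 0.022 without probes 1 to 4608. For CHX plus R1881 these were −0.293, −0.044, −0.101, −0.097, −0.116, −0.099 and −0.036.

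With an experiment left out, the R1881 median ran from −0.166 to −0.091, the CHX median from −0.15 to −0.12, and that of CHX plus R1881 from −0.19 to −0.15. Members with differing orientations in CHX plus R1881 numbered 0 to 2 (0% to 0.296% of genes). Calls then numbered 33 to 40 with CHX (25.4% to 37.3% of genes) and 27 to 37 with CHX plus R1881 (23.4% to 38.4% of genes). With the experiment as a replicate block, 51 members were called with CHX (45% of genes), 44 with CHX plus R1881 (44.3%) and 0 with R1881. The block brought RPS14 and RPL7A with CHX (limma adjusted p = 0.00916 and 0.0232) and RPL27A and RPL24 with CHX plus R1881 (0.0228 and 0.029) past the threshold. Same-numbered experiments deviated together (r = 0.292, 0.166 and 0.564 over genes, 0.566, 0.433 and 0.835 over the members), but with 2 numbers the labels show no pairing. The order is R1881 with CHX, R1881 with CHX plus R1881, and CHX with CHX plus R1881. The fit as reported treats these values as independent. With the block, R1881 in the presence of CHX again passed for 0 members and 0% of genes. Apart from the added probe limit, whose construction drops probes, the cause of each change was not tested.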
